A study of Mus musculus with 18 samples.

Results

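The genes described here encode the proteasome, the protease that degrades proteins tagged with ubiquitin. They are the RefSeq protein-coding genes on autosomes whose symbol is Psma, Psmb, Psmc, Psmd, Psme, Psmf or Psmg followed by a number. The rule took 47 of the 21887 protein-coding genes on chromosomes 1 to 19, X and Y, and used no measured value. Psmd10, which lies on the X chromosome, falls outside it.

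The series mapped H3K27ac, an acetylation of histone H3 at active promoters and enhancers, and H3K4me3, a trimethylation found mainly at promoters, by ChIP-seq in mouse embryonic stem cells of the C57BL/6 strain. The 3 genotypes were Mettl3_KO1 and Mettl3_KO2, called KO1 and KO2 below, and Mettl3_Control, called Control. Mettl3 is the methyltransferase that writes N6-methyladenosine into RNA, and the lines were compared for the 2 histone marks. Cells of every genotype were grown with serum, LIF, CHIR99021 (a GSK3 inhibitor) and PD0325901 (a MEK inhibitor). The sources used here do not give how the lines were derived or whether each is 1 clone. Each genotype and mark had 2 replicate libraries, so 12 peak lists were used, and 6 input samples were not analysed here. The labels do not call the replicates separate cultures, and the p-values below therefore weigh a difference against a spread between libraries that can be technical only.

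H3K27ac lists held 40210 and 39048 peaks in KO1, 65398 and 61383 in KO2, and 29973 and 32957 in Control. H3K4me3 lists held 69995 and 69320 peaks in KO1, 72303 and 66483 in KO2, and 83644 and 81608 in Control. Read totals are not in the lists, so the depth behind each list is unknown. Coverage over the extended genes was called mostly in the direction of the list sizes for both marks, so the shares called among all genes are given with the counts. With every list of a mark reduced to the same number of strongest peaks, 8 of 41 proteasome genes were called higher for H3K27ac, against 35% of all genes, and 9 of 45 lower for H3K4me3, against 16.3%, in the comparison of both knockout lines with Control. These stand in place of the 17 and 11 given below, and the part of sequencing depth in them was not tested. Of the 8 embryonic stem cell markers (Pou5f1, Sox2, Nanog and others), 8 carried peaks of both marks in every library. None of the 6 fibroblast markers carried H3K27ac in any library. Of the 4 primitive endoderm markers only Gata4 did, over 150 bp in KO2 replicate 2. H3K4me3 peaks lay on 2 to 4 of the fibroblast markers and on 3 or 4 of the primitive endoderm markers in each library. Among the 4 blood markers Spi1 carried H3K27ac in every library, Cd74 in KO2 replicate 2 alone, and Ptprc and Ciita in none. Spi1 carried H3K4me3 in every library too, and Ciita did in KO2 replicate 1.

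The core particle of the proteasome is a barrel of alpha rings, which gate the entry, and beta rings, which hold the proteolytic sites. The regulatory particle caps the barrel: its ATPases unfold substrates and thread them in, and its non-ATPase subunits bind ubiquitin chains, remove them and hold the lid and base together. In mammalian cells the subunit genes can be raised together by the transcription factor Nfe2l1, which binds antioxidant response elements in their promoters. Immune and thymic cells use alternative beta subunits, and pluripotent stem cells are known for high proteasome activity, described mainly in human cells.

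The promoters themselves were compared first, on the bases that lie before the listed transcription starts. RefSeq sequence on GRCm38.p6, the assembly of mm10, was found for 39 of the 47 genes. Psmb1, Psmb2, Psmb7, Psmc3, Psmd3, Psmd7, Psma8 and Psmg2 had no entry. In the 250 bases before the start, the median proteasome promoter held 14 CpG dinucleotides, against 10 over all 17492 listed promoters. Only Psma6, Psmb10 and Psmb11 held fewer than 5, which is 7.69% of the proteasome promoters and 34.1% of all.

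Motifs were searched on both strands, and each share below is of promoters with at least 1 match. The ETS site CCGGAAG stood in 28.2% of proteasome promoters and 9.15% of all. The GC box GGGCGG stood in 53.8% and 42.7%, and the NF-Y box CCAAT in 33.3% and 36.5%. The antioxidant response element core TGACNNNGC stood in 12.8% of proteasome promoters, those of Psmb5, Psmb6, Psmc6, Psmd9 and Psmd12, and in 10.5% of all. The nuclear respiratory factor site stood in 2.56%, which is Psma2 alone, and in 1.06%. A match is a description of the letters and not of binding.

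The 5 promoters below run 5′ to 3′ on the gene's strand and end at the base before the start, with matches in capitals. Psmd1 and Psmd14 are shown for the H3K27ac and H3K4me3 differences described later, Psmd4 as the second gene of that H3K4me3 group, Psmb5 for its antioxidant response element core, and Psmb8 as the gene without a peak of either mark.
Psmd1, chr1:86064369-86064618, plus strand: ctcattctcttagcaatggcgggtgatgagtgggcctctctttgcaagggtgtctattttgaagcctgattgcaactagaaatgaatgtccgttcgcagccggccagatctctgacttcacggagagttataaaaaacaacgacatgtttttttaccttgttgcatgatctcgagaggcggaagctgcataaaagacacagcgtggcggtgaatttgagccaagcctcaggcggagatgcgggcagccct
Psmd14, chr2:61711444-61711693, plus strand: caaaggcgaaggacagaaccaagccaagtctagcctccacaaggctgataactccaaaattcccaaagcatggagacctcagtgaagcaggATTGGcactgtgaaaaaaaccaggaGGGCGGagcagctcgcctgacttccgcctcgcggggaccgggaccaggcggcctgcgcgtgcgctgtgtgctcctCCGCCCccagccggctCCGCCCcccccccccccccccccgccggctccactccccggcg
Psmd4, chr3:95042615-95042864, minus strand: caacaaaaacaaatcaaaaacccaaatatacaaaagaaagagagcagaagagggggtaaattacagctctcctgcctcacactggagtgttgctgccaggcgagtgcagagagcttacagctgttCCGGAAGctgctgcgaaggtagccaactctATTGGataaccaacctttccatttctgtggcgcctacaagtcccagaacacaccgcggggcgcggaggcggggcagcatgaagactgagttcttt
Psmb5, chr14:54617996-54618245, minus strand: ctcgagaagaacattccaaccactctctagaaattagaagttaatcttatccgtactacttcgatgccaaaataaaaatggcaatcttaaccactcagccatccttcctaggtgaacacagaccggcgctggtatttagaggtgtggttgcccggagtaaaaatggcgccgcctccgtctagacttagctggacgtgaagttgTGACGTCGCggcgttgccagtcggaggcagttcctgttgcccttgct
Psmb8, chr17:34197945-34198194, plus strand: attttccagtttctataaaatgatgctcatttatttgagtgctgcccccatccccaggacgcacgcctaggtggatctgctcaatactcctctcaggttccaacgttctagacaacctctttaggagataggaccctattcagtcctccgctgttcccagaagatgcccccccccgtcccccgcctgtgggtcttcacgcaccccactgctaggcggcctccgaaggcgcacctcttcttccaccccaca
Psmd1 and Psmb8 held none of the 5 motifs. Psmd14 held a reversed NF-Y box beginning 159 bases before the start and GC boxes at 134, 59 and 43 bases before it. Psmd4 held an ETS site at 125 bases and a reversed NF-Y box at 95 bases. The match in Psmb5 began 47 bases before the start.

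Coverage was measured as the number of base pairs under peaks of a library between the gene's ends, with 2 kb added at each end. A H3K27ac peak met 38 of the 47 genes in all 6 libraries of that mark, and a H3K4me3 peak met 45 of 47. Genes were tested with limma on log2(covered bp + 500) where the mean over the 6 libraries reached 200 bp, which left 41 proteasome genes for H3K27ac and 45 for H3K4me3. A gene was called at a Benjamini-Hochberg adjusted p under 0.05 over all genes tested. Differences below are on this log2 scale with the standard error of the limma contrast, and they understate the change of genes with little coverage. The contrast of both knockout lines together can be carried by 1 line. In such bulk samples a mark in fewer cells and a weaker mark in each cell cannot be told apart.

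**Figure D1:**
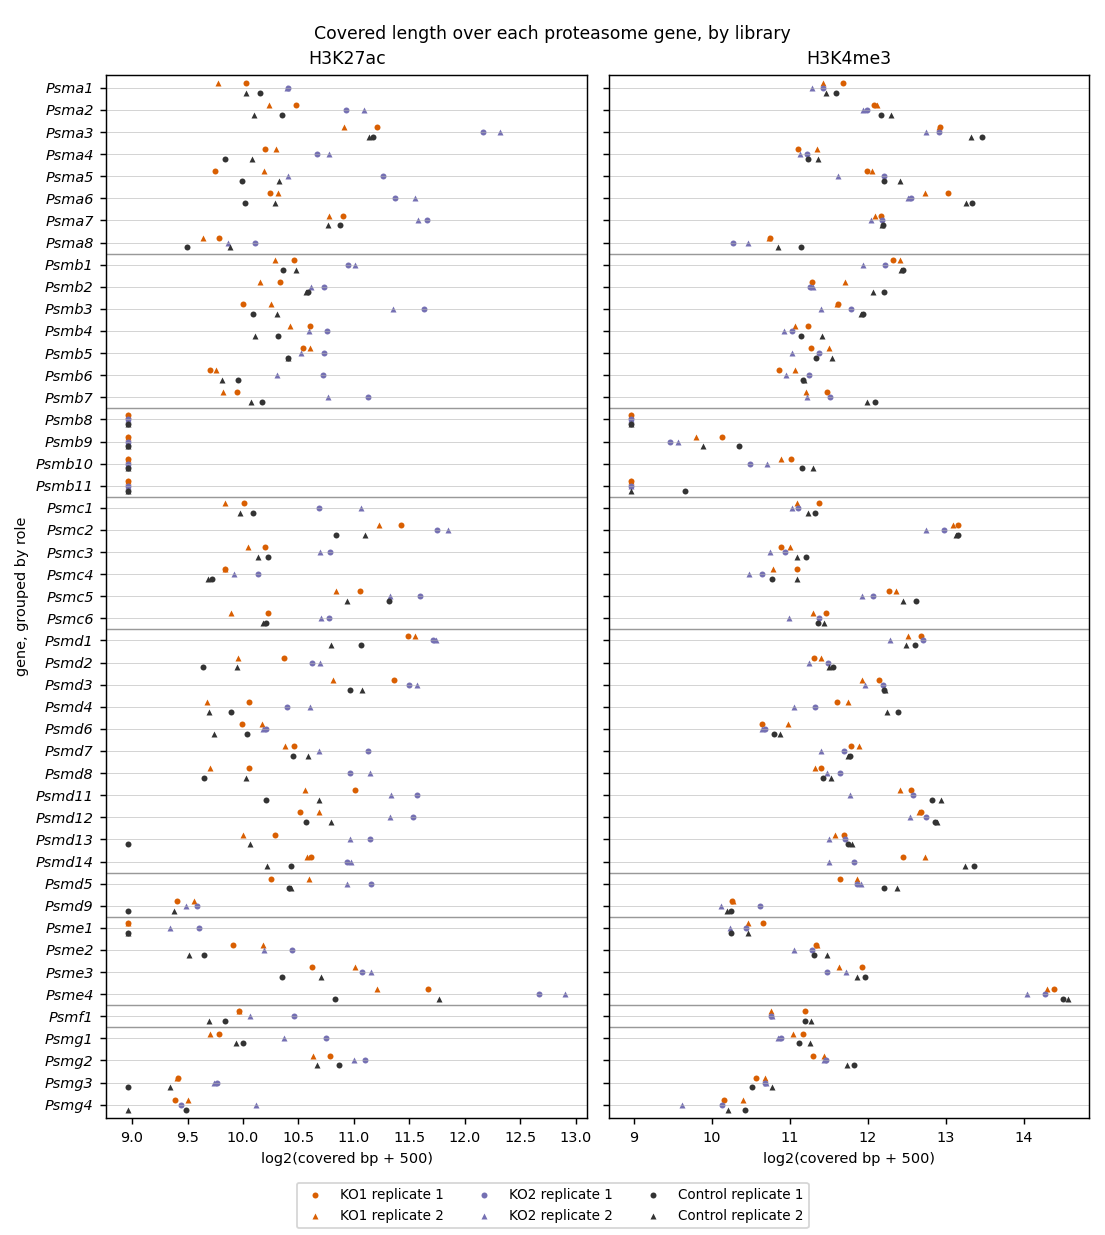
Covered length of H3K27ac (left) and H3K4me3 (right) over each of the 47 genes, as log2(covered bp + 500) on the horizontal axis, with 1 point per library: orange for KO1, violet for KO2 and dark grey for Control, circles for replicate 1 and triangles for replicate 2. Genes are grouped by role from alpha subunits at the top to assembly chaperones at the bottom, and the lowest possible value, 0 bp, holds all 6 H3K27ac points of Psmb8, Psmb9, Psmb10 and Psmb11.

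H3K27ac covered more of many proteasome genes in the knockout lines than in Control, and more in KO2 than in KO1. With both lines together limma called 17 of 41 higher, or 41.5%, while 67.7% of all genes tested were higher. It called 0 lower, against 0.221% of all genes. At an unadjusted p under 0.05 there were 0 lower as well. Shares of all genes at an unadjusted p are not given in this text. After quantile normalization of the libraries, however, 0 were called higher and 3 lower (Psmb2, Psma1 and Psmg2), against 9.36% and 5.23% of all genes. After subtraction of each chromosome's median 0 were higher and 4 lower (Psmc5, Psma1, Psmb2 and Psmg1), against 7.63% and 4.58%. The difference changed sign in 34 of 40 genes under the first scaling and in 36 of 41 under the second. Psmg3 and Psmg4 passed the filter only through the KO2 libraries. The median proteasome gene differed by 0.37, below the 0.59 of all genes, and the median of all genes came to -0.04 after that normalization and that of the proteasome genes to -0.26. In KO1 alone 1 gene was called higher, or 2.44%, against 7.75% of all genes. In KO2 alone 30 were called higher, or 73.2%, against 87.2%. The 4 knockout libraries all lay above both Control libraries for 11 of the 41 genes, or 26.8%, against 43.3% of all genes tested.

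H3K4me3 moved the other way. With both lines together 11 of 45 proteasome genes were lower, or 24.4%, against 20.9% of all genes tested. None was called higher, against 3.03% of all genes, and at an unadjusted p under 0.05 there was none either. Quantile normalization, however, gave 3 higher (Psmd1, Psmc2 and Psme4) and 4 lower (Psmd14, Psmd4, Psmb2 and Psmb7), against 9.3% and 8.47% of all genes. Only 1 was lower in a window of 2 kb around each gene end, which leaves out the part of a gene more than 2 kb from both ends. The share of all genes called in that window is not given here, so this count is not read as particular to proteasome genes. The median was -0.22, against -0.14 over all genes. In KO1 alone 7 were lower, or 15.6%, against 12.7% of all genes, and in KO2 alone 10, or 22.2%, against 20.8%. The KO1 count was 0 without Control replicate 1, Control replicate 2 or KO1 replicate 1, 1 without KO1 replicate 2, and 1 lower with 2 higher after quantile normalization. The KO2 count was 4 without Control replicate 1, 6 without Control replicate 2 and 15 without KO2 replicate 1. All 4 knockout libraries lay below both Control libraries for 24 of the 45 genes, or 53.3%, against 36.8% of all genes tested.

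Among the 8 alpha subunit genes, whose products form the outer rings of the core particle, H3K27ac was called higher in 5 with both lines together and H3K4me3 lower in 3, beside 67.7% and 20.9% of all genes. H3K27ac covered 713 and 778 bp of Psma6 (chromosome 12, 55384222 to 55418459) in KO1 and 2151 and 2496 bp in KO2, against 534 and 750 bp in Control. Both KO2 libraries stood far above the other 4, which overlapped. The difference for both lines was 0.72 ± 0.14 (limma adjusted p = 0.0053), made up of 0.13 in KO1 and 1.31 in KO2. Over the same gene H3K4me3 covered 7896 and 6335 bp in KO1 and 5544 and 5352 bp in KO2, against 9830 and 9279 bp in Control. All 4 knockout libraries were below both Control libraries, and the difference was -0.58 ± 0.11 (limma adjusted p = 0.00842).

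Psma3 behaved alike. H3K27ac covered 1866 and 1427 bp of it in KO1 and 4082 and 4611 bp in KO2, against 1807 and 1751 bp in Control. KO1 spanned the Control values and KO2 was above them, with a difference of 0.50 ± 0.12 for both lines (limma adjusted p = 0.0125). H3K4me3 covered 7285 and 7235 bp in KO1 and 7227 and 6394 bp in KO2, against 10802 and 9785 bp in Control, again with no overlap. That difference was -0.52 ± 0.10 (limma adjusted p = 0.00884). Psma2, Psma4 and Psma7 were the other alpha genes called higher for H3K27ac, with differences of 0.46, 0.53 and 0.41. The start of Psma7 lies 19 bp from the divergent start of Ss18l1 and that of Psma2 205 bp from that of Mrpl32, so these peaks cannot be assigned to 1 gene. Psma8, the testis form of an alpha subunit, was called lower for H3K4me3 (-0.44) and carried 221 to 603 bp of H3K27ac over the 6 libraries.

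Of the 7 standard beta subunit genes, 2 were called higher for H3K27ac and 2 lower for H3K4me3, again beside 67.7% and 20.9% of all genes. Psmb5, Psmb6 and Psmb7 encode the catalytic subunits, with chymotrypsin-like, caspase-like and trypsin-like activity in that order. H3K27ac covered 991 and 1057 bp of Psmb5 in KO1 and 1199 and 970 bp in KO2, against 856 and 859 bp in Control. The knockout libraries were all above Control, but by less than the test needed: 0.19 ± 0.13 (limma adjusted p = 0.21). H3K4me3 covered 1969 and 2400 bp of Psmb5 in KO1 and 2152 and 1600 bp in KO2, against 2086 and 2484 bp in Control, with overlap between the groups and a difference of -0.14 ± 0.13 (limma adjusted p = 0.467).

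Psmb6 had 331 and 366 bp of H3K27ac in KO1 and 1186 and 765 bp in KO2, against 492 and 399 bp in Control. KO1 was below Control and KO2 above it, so the difference for both lines, 0.24 ± 0.17, did not pass (limma adjusted p = 0.224), while KO2 alone did (0.63, adjusted p = 0.0178). Its H3K4me3 ran over 1365 and 1643 bp in KO1 and 1938 and 1475 bp in KO2, against 1807 and 1837 bp in Control, with overlap and no call.

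Psmb7 showed the same split by line for H3K27ac, with 487 and 402 bp in KO1 and 1740 and 1246 bp in KO2, against 652 and 576 bp in Control. KO1 lay below both Control libraries and KO2 above both, and both lines together differed by 0.30 ± 0.16 (limma adjusted p = 0.124). Its H3K4me3 fell in both lines: 2349 and 1876 bp in KO1 and 2423 and 1881 bp in KO2, against 3857 and 3556 bp in Control. The groups did not overlap, and the difference was -0.68 ± 0.12 (limma adjusted p = 0.00675), nearly equal in KO1 (-0.69) and KO2 (-0.67).

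The other standard beta genes encode subunits without a proteolytic site. Psmb2 (chromosome 4, 126677637 to 126709715) had the lowest H3K27ac difference of the 41 genes tested, -0.12 ± 0.13 (limma adjusted p = 0.423), with 789 and 637 bp in KO1 and 1197 and 1069 bp in KO2, against 1038 and 1014 bp in Control. Its H3K4me3 fell to 2001 and 2842 bp in KO1 and 1960 and 2014 bp in KO2, against 4219 and 3796 bp in Control. All knockout libraries were below Control, with a difference of -0.75 ± 0.13 (limma adjusted p = 0.00558). Psmb2 lies on chromosome 4, where the median over all genes was -0.25, lower than the -0.14 of all chromosomes, and subtracting each chromosome's median left -0.48 (adjusted p = 0.0278). H3K27ac over Psmb3 was 526 and 716 bp in KO1 and 2674 and 2115 bp in KO2, against 591 and 764 bp in Control, called higher in KO2 (1.29, limma adjusted p = 0.000732) and not in KO1 (-0.07). Of the KO2 length, 1260 and 524 bp lay more than 2 kb from the start, and the window reaches into the neighbouring genes Pcgf2 and Pip4k2b. Psmb4, with 0.39, was the remaining call.

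The interferon-inducible beta genes Psmb8, Psmb9 and Psmb10 and the thymic beta gene Psmb11 carried no H3K27ac peak in any of the 6 libraries. Psmb8 carried no H3K4me3 peak either, and Psmb11 carried 308 bp in Control replicate 1 and none elsewhere. Psmb9 had 627 and 395 bp of H3K4me3 in KO1 and 210 and 258 bp in KO2, against 809 and 445 bp in Control. Its groups overlapped (-0.37 ± 0.19, limma adjusted p = 0.195), and its start lies 226 bp from the divergent start of Tap1, the peptide transporter gene. Psmb10 had 1569 and 1399 bp in KO1 and 938 and 1170 bp in KO2, against 1792 and 2012 bp in Control. The knockout libraries were all below Control, with a difference of -0.45 ± 0.11 (limma adjusted p = 0.0201). Psmb10 lies on chromosome 8, whose genes had the lowest H3K4me3 median of the autosomes, -0.32, and after subtraction of the chromosome medians its difference was -0.12 (adjusted p = 0.548).

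Of the 6 ATPase genes of the regulatory particle, 1 was called higher for H3K27ac and 1 lower for H3K4me3, beside 67.7% and 20.9% of all genes. H3K27ac was called higher with both lines together in Psmc2 alone (0.59 ± 0.13, limma adjusted p = 0.00726), where it covered 2252 and 1892 bp in KO1 and 2940 and 3195 bp in KO2, against 1334 and 1692 bp in Control. All 4 knockout libraries exceeded both Control libraries. In KO2 alone 4 of the 6 genes were called higher for H3K27ac, beside 87.2% of all genes. The remaining pair, Psmc4 and Psmc5, differed by 0.33 and 0.34 without passing. Psmc5 was the only ATPase gene called lower for H3K4me3 (-0.38, adjusted p = 0.0292), and its start lies 101 bp from the divergent start of Ftsj3.

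Of the 11 non-ATPase genes, H3K27ac was called higher in 6 and H3K4me3 lower in 2, at or below the shares of all genes (67.7% and 20.9%). Psmd1 (chromosome 1, 86064619 to 86139295, plus strand, GRCm38) encodes the largest scaffold subunit of the regulatory particle. H3K27ac covered 2375 and 2493 bp of it in KO1 and 2863 and 2919 bp in KO2, against 1644 and 1275 bp in Control. All 4 knockout libraries were above both Control libraries. The difference was 0.69 ± 0.12 for both lines (limma adjusted p = 0.00325), with 0.59 in KO1 (adjusted p = 0.0466) and 0.80 in KO2 (adjusted p = 0.00167). Psmd1 was thus the 1 gene called in KO1, and that call was lost when any library other than Control replicate 2 was left out. All of its H3K27ac lay within 2 kb of the start, and in that 4001 bp window coverage was 30.1 percentage points higher in the knockout lines (limma adjusted p = 0.0015). H3K4me3 in the same window was 16.8 points higher (limma adjusted p = 0.029), while over the extended gene it differed by 0.00 ± 0.14.

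Psmd13, a lid subunit gene, had the largest H3K27ac difference among the genes called, 1.08 ± 0.30 for both lines (limma adjusted p = 0.0171). It was covered over 752 and 524 bp in KO1 and 1760 and 1494 bp in KO2, against 0 and 571 bp in Control. KO1 replicate 2 lay below Control replicate 2, so the groups overlapped, and the size of the difference rests on the Control library without a peak: without it the difference was 0.53, and with a pseudocount of 100 bp it was 2.11. The start of Psmd13 lies 85 bp from that of Sirt3 on the other strand, so the peaks cannot be assigned to 1 of the genes. Psmd8, also of the lid, had 562 and 332 bp in KO1 and 1497 and 1763 bp in KO2, against 304 and 543 bp in Control, which is a difference of 0.63 ± 0.18 (limma adjusted p = 0.0201). Psmd11, another lid gene, had 1564 and 1007 bp in KO1 and 2541 and 2086 bp in KO2, against 683 and 1143 bp in Control (0.67 ± 0.20, limma adjusted p = 0.0209). In both, KO2 was above Control and KO1 overlapped it.

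Psmd14 (chromosome 2, 61711694 to 61800376, plus strand) encodes the deubiquitinase that cuts ubiquitin chains from substrates as they enter, and it had the largest H3K4me3 difference. H3K4me3 covered 5134 and 6330 bp in KO1 and 3121 and 2414 bp in KO2, against 10050 and 9218 bp in Control. The 3 genotypes did not overlap at all. The difference for both lines was -1.17 ± 0.13 (limma adjusted p = 0.00105), which is 0.443 times the Control value of bp + 500. It was -0.71 in KO1 (adjusted p = 0.0203) and -1.64 in KO2 (adjusted p = 0.000605). The number of H3K4me3 peaks over the extended gene was 10 and 13 in KO1 and 7 and 4 in KO2, against 18 in each Control library. Within 2 kb of the start, coverage was 2236 and 2461 bp in KO1 and 2089 and 2195 bp in KO2, against 2515 and 2293 bp in Control. Beyond it, coverage was 2898 and 3869 bp in KO1 and 1032 and 219 bp in KO2, against 7535 and 6925 bp in Control. The peaks away from the start were weak ones: their median fold over background, as the authors' lists give it, ranked between the 13.9th and 39.7th percentiles of their own lists. H3K27ac over Psmd14 was higher in the knockout lines, with 1066 and 1029 bp in KO1 and 1460 and 1514 bp in KO2, against 884 and 688 bp in Control (0.45 ± 0.13, limma adjusted p = 0.0197).

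Psmd4 (chromosome 3, 95032688 to 95042614, minus strand), which encodes a ubiquitin receptor, was next. H3K4me3 covered 2629 and 2951 bp in KO1 and 2071 and 1623 bp in KO2, against 4845 and 4383 bp in Control, again with the 3 genotypes apart. The difference was -0.88 ± 0.11 (limma adjusted p = 0.00171). Within 2 kb of the start the libraries were alike, with 1874 and 1954 bp in KO1 and 1871 and 1623 bp in KO2, against 1798 and 1657 bp in Control. Beyond it there were 755 and 997 bp in KO1 and 200 and 0 bp in KO2, against 3047 and 2726 bp in Control.

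The assembly chaperone Psmd5 of the regulatory particle was called lower for H3K4me3 (-0.47, limma adjusted p = 0.0146), and the chaperone Psmd9 was not. Of the 4 core assembly chaperones, Psmg2 was called lower for H3K4me3 (-0.37). Psmg3 had 180 and 176 bp of H3K27ac in KO1 and 370 and 356 bp in KO2, against 0 and 150 bp in Control. Its call (0.42) is counted above, but it was tested only because of KO2. Among the activators, which open the core without ATP, Psme2 was called higher for H3K27ac (0.60 ± 0.16, limma adjusted p = 0.0152). The start of Psme2 lies 641 bp from the divergent start of Rnf31, so these peaks cannot be assigned to 1 gene. Psme1, the partner of Psme2, had H3K27ac only in KO2, over 280 and 150 bp. Psme4, the activator used in DNA repair and in sperm development, had 2747 and 1872 bp of H3K27ac in KO1 and 6022 and 7156 bp in KO2, against 1323 and 2986 bp in Control. Both KO1 libraries lay within the Control range and both KO2 libraries above it, and the call for both lines (0.81 ± 0.26, limma adjusted p = 0.0303) came from KO2 (1.49, adjusted p = 0.00352). H3K4me3 over Psme4 was the widest of all 47 genes, with 20962 and 19636 bp in KO1 and 19337 and 16325 bp in KO2, against 22724 and 23705 bp in Control, and did not pass (-0.28 ± 0.11, limma adjusted p = 0.107). The inhibitor gene Psmf1 was called for neither mark with both lines together.

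The calls for both lines depended on single libraries. Shares of all genes called under the same omissions are not given anywhere in this text. The counts under omissions are therefore not read as particular to proteasome genes. Without KO2 replicate 1, 4 genes were called higher for H3K27ac, without KO2 replicate 2 there were 6, without Control replicate 1 there were 7, and without KO1 replicate 1 there were 11. Of the 17 H3K27ac genes, Psma6, Psmd1 and Psmc2 were called under each of the 6 omissions, with limma adjusted p of at most 0.0369, 0.0279 and 0.048. The other 14 each lost the call under at least 1 omission. Over the omissions, the difference ran from 0.422 to 0.570 for Psma3 and from 0.505 to 0.717 for Psmb3. It ran from 0.439 to 0.814 for Psmd8, from 0.437 to 0.911 for Psmd11 and from 0.534 to 1.633 for Psmd13. For Psme4 it ran from 0.345 to 1.280. Psmd14, Psmb4 and Psmg3 are also among the 14, and Psmg3 was tested under only 4 of the 6 omissions. For H3K4me3 the omission of Control replicate 1 left 2 genes called lower, and that of Control replicate 2 left 5. Psmd14 and Psmd4 were the pair called under each omission, with adjusted p of at most 0.0237 and 0.0312. Psmb2, Psmb7, Psma6, Psma3, Psmb10, Psmd5, Psmg2, Psmc5 and Psma8 all missed the threshold without Control replicate 1. Psmc5 and Psma8 also missed it without either KO1 library. Over the omissions, the difference ran from -0.852 to -0.643 for Psmb2 and from -0.756 to -0.608 for Psmb7. It ran from -0.657 to -0.508 for Psma6, from -0.587 to -0.451 for Psma3 and from -0.519 to -0.387 for Psmb10.

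**Figure D2:**
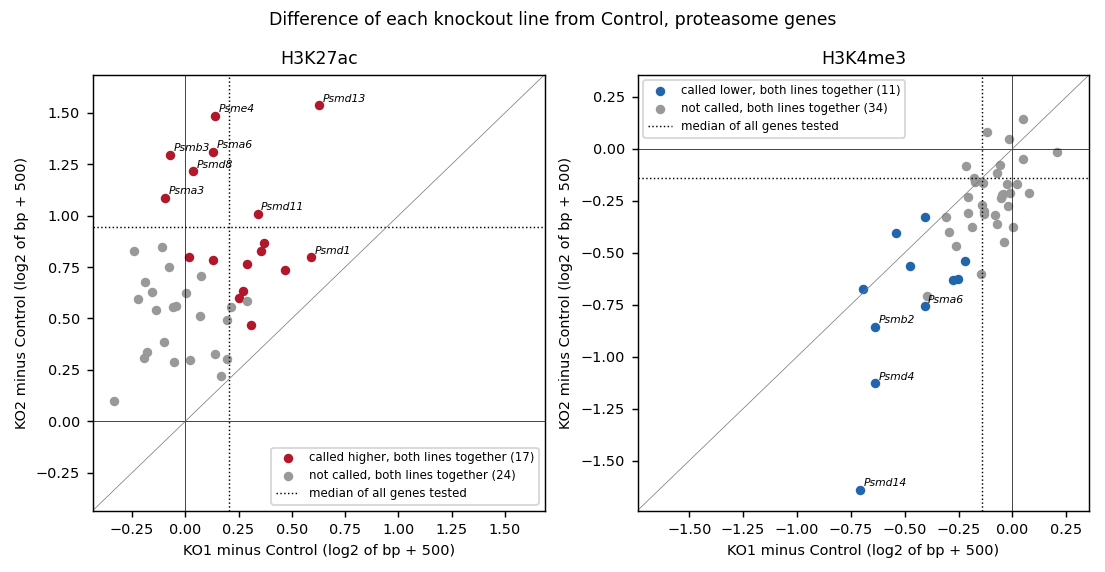
Difference of KO1 from Control (horizontal) and of KO2 from Control (vertical) for each gene tested, on the log2 scale of covered bp + 500, for H3K27ac (left) and H3K4me3 (right). Red points are the 17 genes called higher and blue points the 11 called lower with both lines together, dotted lines mark the median of all genes tested, and the diagonal marks equal differences; in the H3K27ac panel every gene lies above the diagonal, while after quantile normalization 0 genes were called higher and 3 lower for H3K27ac, and 3 higher and 4 lower for H3K4me3.

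The lines differed from each other mainly in H3K27ac. It was called higher in KO2 than in KO1 for 26 of 41 proteasome genes, or 63.4%, against 71.7% of all genes tested. None was called lower, against 0.267% of all genes, and at an unadjusted p under 0.05 there was none either. The median proteasome gene differed by 0.52 and the median gene by 0.71, and after quantile normalization 0 were called higher and 1 lower. Without KO2 replicate 1 there were 7, without KO2 replicate 2 there were 11 and without KO1 replicate 2 there were 14. The largest differences were those of Psmb3 (1.37), Psme4 (1.35) and Psma3 (1.18), whose values are given above. By role, 7 of 8 alpha genes, 5 of 7 beta genes and 5 of 6 ATPase genes were called, and 6 of 11 non-ATPase genes. For H3K4me3, Psmd14 alone was called lower in KO2 than in KO1 (-0.93 ± 0.15, limma adjusted p = 0.0188), which is 2.22% of the 45 genes, against 2.02% of all genes, and 0 were called without either KO1 library and 3 without KO2 replicate 1.

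Where the marks lay was read from the 39 genes with a listed start. At 200 bp downstream of the start, H3K27ac covered 76.9% of them in both KO1 libraries and 79.5% and 76.9% in KO2, against 64.1% and 71.8% in Control. At 800 bp downstream it covered 12.8% and 15.4% in KO1 and 41% and 43.6% in KO2, against 17.9% and 15.4% in Control. In the lists as deposited, H3K27ac thus reached 800 bp in more genes in KO2 than in Control, and in KO1 its shares were at or below those of Control. On the upstream side, at 300 bp, the shares were 33.3% and 35.9% in KO1 and 51.3% and 56.4% in KO2, against 25.6% and 33.3% in Control. At the start itself all libraries had a gap, with 10.3% to 20.5% of genes covered.

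H3K4me3 covered the same stretch more evenly. At 200 bp downstream the shares were 82.1% in both KO1 libraries and 84.6% and 87.2% in KO2, against 87.2% and 79.5% in Control. At 1500 bp they were 48.7% and 51.3% in KO1 and 46.2% and 30.8% in KO2, against 53.8% and 59% in Control. The libraries were close near the start, and those of both knockout lines were below both Control libraries at 1500 bp.

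**Figure D3:**
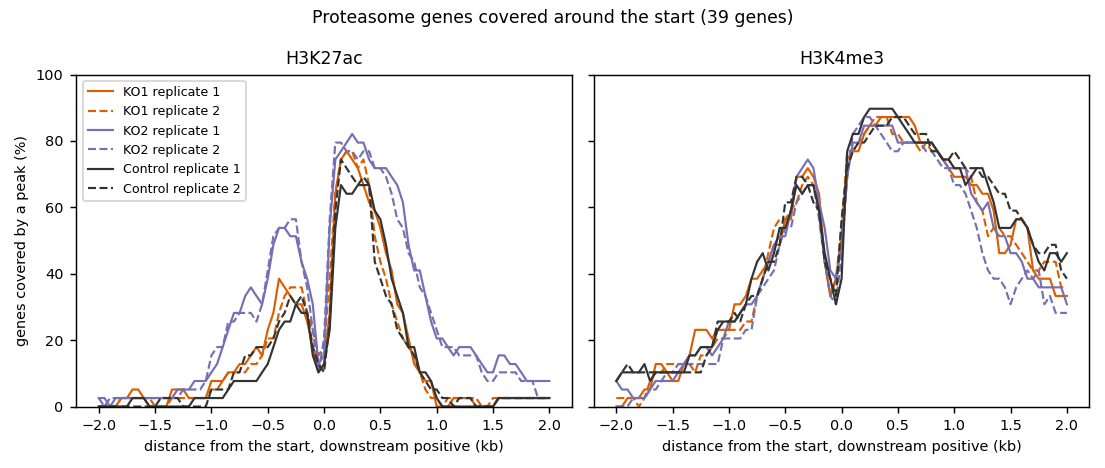
Share of the 39 genes with a listed start that were covered by a peak (vertical, percent) at each distance from the start (horizontal, kb, downstream positive), for H3K27ac (left) and H3K4me3 (right), with 1 line per library, solid for replicate 1 and dashed for replicate 2. In the lists as deposited, both violet KO2 lines lie above the others for H3K27ac from 0.5 to 1 kb on either side of the start, reaching 41% and 43.6% at 0.8 kb against 17.9% and 15.4% in Control, and the H3K4me3 lines run close together between 0.2 and 0.8 kb.

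The window within 2 kb of the start was tested by itself as the percent of its length covered. H3K27ac was called higher there with both lines together in 17 of the 32 proteasome genes tested, or 53.1%, against 68.3% of all genes, and in 0 after quantile normalization. The median difference was 8.34 points, against 10.57 points over all genes. The largest differences were those of Psmd1 (30.1 points), Psmd13 (21.2 points) and Psmd8 (15.4 points). H3K4me3 was called higher in 1 of 36, Psmd1, against 0.675% of all genes. It was called lower in 0, against 4.2% of all genes, and 7 were lower at an unadjusted p under 0.05. The median H3K4me3 difference in this window was -5.47 points, against -2.11 points over all genes, and 8 of the 36 lay above 0. With any 1 of the 6 libraries left out, Psmd1 was not called there for H3K4me3, and for H3K27ac the count fell to 2 without Control replicate 1 6 without Control replicate 2 and 11 without either KO2 library.

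The genotypes differed more in the H3K4me3 length beyond 2 kb from the gene's start than in the length near it, on the lists as deposited. Peaks wholly beyond 2 kb lay on only 12 to 18 of the 39 genes with a listed start per library. Psme4 held 18144 and 16972 bp of that length in KO1 and 16487 and 13534 bp in KO2, against 19662 and 20792 bp in Control. Summed over the 39 genes, coverage within 2 kb of a start was 79475 and 77322 bp in KO1 and 76786 and 70329 bp in KO2, against 81877 and 82043 bp in Control. Over the rest of the extended genes it was 50949 and 48387 bp in KO1 and 44155 and 31322 bp in KO2, against 70482 and 71144 bp in Control. All knockout sums of both kinds were below both Control sums. H3K27ac lay mostly near starts: 26858 and 25520 bp in KO1 and 45242 and 44028 bp in KO2, against 22814 and 23647 bp in Control, with 3651 and 2594 bp in KO1 and 12721 and 12223 bp in KO2 elsewhere, against 1266 and 2913 bp in Control.

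**Figure D4:**
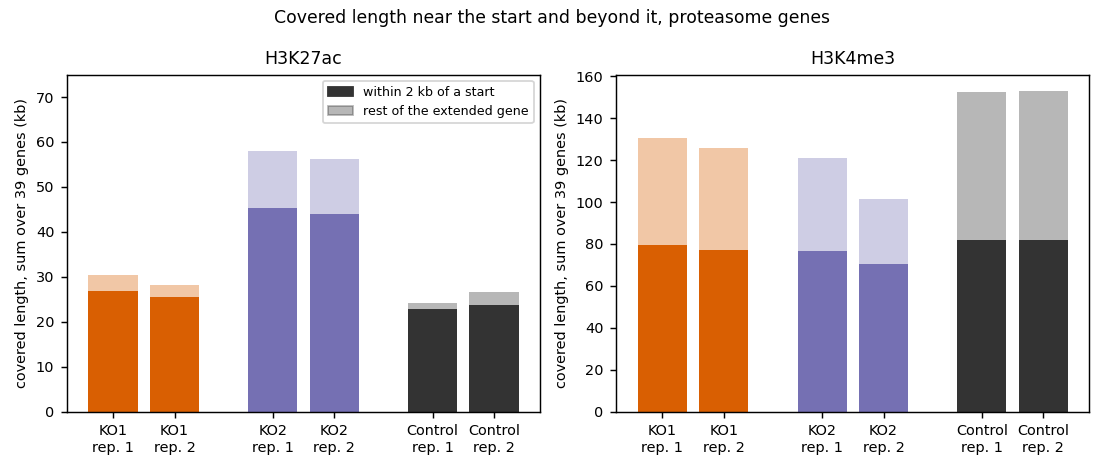
Covered length summed over the 39 genes with a listed start, in kb on the vertical axis, with 1 bar per library for KO1, KO2 and Control. The solid part of each bar lies within 2 kb of a listed start and the pale part over the rest of the extended gene. In the lists as deposited, for H3K4me3 (right) both parts are shorter in all 4 knockout bars than in both Control bars, the pale part by more. H3K4me3 peaks wholly beyond 2 kb of a start lay on only 12 to 18 of the 39 genes per library. For H3K27ac (left) both parts are taller in KO2.

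A fit on the region beyond 2 kb from each start, a window chosen after these values were seen, called 6 of 17 proteasome genes lower for H3K4me3, or 35.3%, against 32.9% of all genes tested. The called genes were Psmd4 (-1.91), Psmd14 (-1.94), Psmc5 (-1.05), Psma6 (-0.82), Psmb3 (-0.79) and Psma3 (-0.70), with limma adjusted p between 0.00203 and 0.0333. The median of the 17 was -0.70 and that of all genes -0.32. For H3K27ac 7 genes were tested in that region, and Psma7 and Psmb3 passed the filter only through KO2, so nothing is read from the 5 called higher (61.7% of all genes were).

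Other genes of the ubiquitin-proteasome pathway were taken from a list of 29 that were found in the annotation. H3K27ac was called higher with both lines together in 15 of the 29 and H3K4me3 lower in 10, against the 67.7% and 20.9% of all genes given above. Uba1, the main ubiquitin-activating enzyme gene, lies on the X chromosome, where the median H3K27ac difference was 0.77 and 89.1% of genes were called higher. It had 603 and 531 bp of H3K27ac in KO1 and 2133 and 1819 bp in KO2, against 180 and 243 bp in Control. The difference was 1.19 ± 0.14 (limma adjusted p = 0.0011). Nfe2l1, the activator of proteasome genes named above, had 2986 and 1408 bp in KO1 and 6339 and 5243 bp in KO2, against 1905 and 1801 bp in Control (0.77 ± 0.23, limma adjusted p = 0.0228), with KO1 on both sides of Control. Nploc4, a cofactor of the segregase Vcp, had 913 and 1055 bp in KO1 and 1992 and 2192 bp in KO2, against 512 and 727 bp in Control (0.81 ± 0.14, limma adjusted p = 0.00336).

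For H3K4me3 the largest falls of that list were those of Ddi2, Sem1 and Ubqln1. Ddi2, on chromosome 4, the protease that cuts and so activates Nfe2l1, was covered over 3337 and 4553 bp in KO1 and 4122 and 2480 bp in KO2, against 8487 and 7585 bp in Control (-1.08 ± 0.19, limma adjusted p = 0.00588). Sem1, which encodes the smallest regulatory particle subunit and lacks the Psm symbol, was covered over 5289 and 5691 bp in KO1 and 5772 and 3674 bp in KO2, against 10539 and 11340 bp in Control (-1.05 ± 0.16, limma adjusted p = 0.00343). Ubqln1, a shuttle that carries ubiquitinated proteins, was covered over 7258 and 8635 bp in KO1 and 7164 and 5828 bp in KO2, against 15699 and 14341 bp in Control (-1.02 ± 0.12, limma adjusted p = 0.00144). In all 3 the knockout libraries were below both Control libraries.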

How the data were processed

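The deposited files were narrowPeak lists, 1 per ChIP library, for 12 libraries (2 marks, 3 genotypes, 2 replicates each); 6 input samples were not analysed here. Per the submitters' processing notes the authors used CASAVA, Trimmomatic 0.38, Bowtie 1.2.2 and MACS2 on mm10. Per the labels' protocols, spike-in chromatin was added; the sources used here do not say whether it entered the peak calls. Every library had a list of its own, and replicates were not pooled. The deposited values are each peak's fold over background, a ratio, and −log10 p and −log10 q. The fold served only to rank peaks within a list, the −log10 p to equalise list lengths and the −log10 q for a stricter threshold. Read totals are unknown, so list length and depth cannot be told apart, and no interval for counting error can be given.

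From the lists, covered bp over RefSeq gene ends extended by 2 kb were computed for 21887 protein-coding genes, and tested as log2(bp + 500) with limma 3.58.1 in R 4.3.3 (empirical Bayes with a mean trend, 6 libraries of a mark in 1 fit, genes whose mean reached 200 bp). The percent covered within 2 kb of the listed start was fitted likewise where its mean reached 5%. P-values were adjusted by Benjamini-Hochberg over all genes tested, at 0.05. Coverage used Python 3.11.15 with numpy 2.4.6 and pandas 2.3.3, figures matplotlib 3.10.9, and the coverage step and the limma fit were tested on simulated data. Replicates shared at most 7 peaks with identical ends, so none was a repeated deposit.

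The members, lists and tests were chosen with earlier results of these data known. Values in every library are given for up to 6 called members in each direction and mark, up to 3 in each direction for KO1 minus Control and KO2 minus KO1, members without a peak, the catalytic and inducible beta genes, and up to 3 other ubiquitin-proteasome genes in each direction and mark; the other genes named were chosen after their values were seen. Of 30 other pathway genes listed, 29 were found. Alternatives changed the scaling, pseudocount, filter, peak threshold, window, block and libraries. The window without 2 kb around each start was added after the data were seen. Peak coverage of Mettl3 does not check its deletion and is not given.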

Additional observations from a re-analysis of the deposited data

Results flagged for a closer look

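The results below are genes at which the lines differ from each other, by limma's test of KO2 minus KO1 on log2(covered bp + 500). They come only from the genes that the stated rule chose for values in every library. Over all 41 proteasome genes tested for H3K27ac, 26 were called higher in KO2. For H3K27ac the difference was 1.37 at Psmb3, 1.35 at Psme4, 1.18 at Psma3, 1.18 at Psma6, 1.18 at Psmd8, 1.07 at Psmb7, 0.91 at Psmd13, 0.78 at Psmb6 and 0.67 at Psmd11, with adjusted p between 0.000945 and 0.0469. Both KO2 libraries were above both KO1 libraries at each of them. Differences of this sign were called at 71.7% of all genes tested, and the KO2 lists were also the longest for this mark. For H3K4me3 the difference was -0.93 at Psmd14 (limma adjusted p = 0.0188), where both KO2 libraries were below both KO1 libraries. The part of list length in these differences was not tested gene by gene.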

How the results depend on the processing

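Peak lists carry no depth, and with 2 libraries a group single libraries decided many calls. Counts below are of proteasome genes called by limma. Where no share of all genes stands beside a count in this section, the count is not read as particular to proteasome genes. Quantile normalization left 0 higher for H3K27ac with both lines together (3 lower), 0 in KO1 and 0 in KO2 (9 lower). It left 0 for KO2 minus KO1 (1 lower) and 0 for start coverage. Of all genes, 9.36% were higher and 5.23% lower with both lines together. In KO1 3.17% were higher, and in KO2 13.2% were higher and 12.7% lower. For H3K4me3 quantile normalization left 4 lower with both lines (3 higher), 1 in KO1 (2 higher) and 7 in KO2 (1 higher). It left 2 lower for KO2 minus KO1. Of all genes, 8.47% were lower and 9.3% higher with both lines. In KO1 the shares were 5.02% and 4.47%, and in KO2 10.1% and 11.2%. With chromosome medians subtracted, H3K27ac had 0 higher with both lines (4 lower), 0 in KO1 and 0 in KO2 (6 lower). It had 0 for KO2 minus KO1 (1 lower). Of all genes, 7.63% were higher and 4.58% lower with both lines. In KO1 1.9% were higher, and in KO2 13.2% were higher and 11.5% lower. H3K4me3 then had 3 lower in KO1 (1 higher), against 8.8% and 3.09% of all genes, and 2 for KO2 minus KO1. With equal numbers of peaks, H3K27ac had 8 higher with both lines, against 35% of all genes, and 0 in KO1, against 0.494%. It had 16 for KO2 minus KO1. H3K4me3 then had 3 lower in KO1, against 7.91% of all genes.

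In the window of 2 kb around each gene end, H3K27ac had 0 higher in KO1, and H3K4me3 had 1 lower with both lines, 0 in KO1, 2 in KO2 and 0 for KO2 minus KO1. Over the gene without the extension H3K27ac had 10 higher with both lines and 0 in KO1. With 1 kb on each side of the start H3K4me3 had 0 higher. Peaks with −log10 q of at least 5 gave 7 lower with both lines and 2 in KO1 for H3K4me3. H3K27ac in KO1 had 0 higher also with a pseudocount of 2000 bp, without the filter and on untransformed bp. The window without 2 kb around each start, chosen after seeing the data, gave 5 higher for H3K27ac, of 7 tested, and 6 lower for H3K4me3.

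Whether the replicate numbers pair the samples is not known. The deviations of same-numbered libraries correlated by -0.009 to 0.019 across genes, a measure that cannot see a shift shared by all genes. With a replicate block H3K27ac had 17 higher with both lines and 0 in KO1, and H3K4me3 had 11 lower with both lines.

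With 1 library left out at a time, its remaining partner is assumed to vary like the other groups. H3K27ac then had 4 to 17 higher with both lines, 0 to 1 in KO1, 17 to 29 in KO2, 7 to 25 for KO2 minus KO1 and 2 to 15 for start coverage. The fewest in KO2 came without KO2 replicate 1. H3K4me3 had 2 to 16 lower with both lines, 0 to 8 in KO1, 4 to 15 in KO2 and 0 to 3 for KO2 minus KO1. In KO1 there were 0 without either Control library or KO1 replicate 1 and 1 without KO1 replicate 2. In KO2 there were 4 without Control replicate 1, 6 without Control replicate 2 and 15 without KO2 replicate 1. H3K4me3 start coverage had 0 higher and 0 lower under each omission.

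For H3K27ac the difference changed sign in 34 of 40 genes under quantile normalization and in 36 of 41 with chromosome medians subtracted. For H3K4me3 it did so in 17 and 9 of 45, and in 6 of 43 around the gene ends. Among the genes followed through every alternative, those for H3K27ac under quantile normalization were Psma3 (-0.134), Psmb3 (-0.005), Psmb5 (-0.414), Psmb6 (-0.406), Psmb7 (-0.333) and Psmd8 (-0.016). With chromosome medians subtracted they were Psma3 (-0.098), Psmb3 (-0.081), Psmb5 (-0.299), Psmb6 (-0.455), Psmb7 (-0.308), Psmd1 (-0.003), Psmd11 (-0.019) and Psmd8 (-0.038). For H3K4me3, Psma3 (0.259) and Psmd4 (0.064) did so around the gene ends, and Psmb5 under quantile normalization (0.009) and with chromosome medians subtracted (0.067). Genes not followed that were called after such a change under quantile normalization were Psma1 (-0.565) and Psmg2 (-0.479) for H3K27ac and Psme4 (0.233) and Psmc2 (0.335) for H3K4me3; with chromosome medians subtracted they were Psmc5 (-0.614), Psma1 (-0.607) and Psmg1 (-0.586) for H3K27ac. Both scalings remove a shift shared by most genes; the cause of the other changes was not tested.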

Other observations

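A few genes with a Psm symbol lay outside the rule. Psmd10, an assembly chaperone of the regulatory particle on the X chromosome, carried H3K27ac in KO2 replicate 1 alone, over 156 bp. Its H3K4me3 covered 767 and 710 bp in KO1 and 962 and 671 bp in KO2, against 722 and 982 bp in Control, with overlap between the groups. Psme2b, on chromosome 11, carried neither mark in any library.

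Psme3ip1, on chromosome 8, carried 1050 and 994 bp of H3K27ac in KO1 and 2248 and 1489 bp in KO2, against 785 and 628 bp in Control. Its H3K4me3 covered 3958 and 4544 bp in KO1 and 3419 and 2951 bp in KO2, against 6809 and 6734 bp in Control. Neither mark overlapped between knockout and Control libraries there. On chromosome 8 the median H3K4me3 difference was -0.32, and 42.2% of genes were called lower with both lines together. Psmc3ip, a meiotic recombination gene on chromosome 11, carried 495 and 281 bp of H3K27ac in KO1 and 714 and 1068 bp in KO2, against 298 and 244 bp in Control, where KO1 replicate 2 overlapped Control.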
